A study of Mus musculus with 7 samples.

Results

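The genes described here are 9 genes of the T helper 1 (Th1) programme, chosen by name from the 15815 genes of the table: Tbx21, Eomes, Hopx, Il12rb1, Il12rb2, Stat4, Il18r1, Il18rap and Ifng. All 9 were found in the table, and all passed the filter on low values, a mean of at least 10 over all libraries. They were read in Treg cells (regulatory T cells), a CD4 lineage that depends on the transcription factor Foxp3 and restrains other immune cells. The study compared 3 libraries of YFP+ Treg cells lacking Hpgd, the enzyme that inactivates prostaglandins (KO 1 to 3), with 4 libraries of YFP+ WT Treg cells (WT 1 to 4). In both groups the YFP+ cells had been given to Rag-/- mice together with naive T cells and unmarked Treg cells, which were WT in both groups, and were sorted from the mesenteric lymph nodes (mLN) 8 weeks later. The labels give the strain C57BL/6JRcc and the same line for all 7 samples, which joins a floxed Hpgd allele with Foxp3-YFP-Cre. That Cre is driven by Foxp3, so the deletion is restricted to Treg cells. Which of these alleles the WT cells carried, the age of the animals and whether each library came from a separate host are not given in the sources used here, so the p-values below reflect only how far these samples lie apart, which may in part be technical. Rag-/- hosts have no T or B cells of their own and keep natural killer (NK) cells, innate lymphoid cells and myeloid cells.

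In helper T cells, interleukin-12 (IL-12) binds a receptor of 2 chains, Il12rb1 and Il12rb2, and activates the transcription factor Stat4. Together with interferon-gamma, this leads to T-bet, the product of Tbx21, which drives Ifng and other Th1 genes. T-bet and Stat4 raise the IL-18 receptor, whose Il18r1 and Il18rap chains let IL-18 and IL-12 act together to release interferon-gamma. Treg cells in Th1-type inflammation can themselves express T-bet and the chemokine receptor Cxcr3, usually with little interferon-gamma.

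The table rested on 4135733 to 9501939 reads per KO library and 6129064 to 10622507 per WT library. KO 3 was the smallest library, in which 1 read was worth a normalized count of 1.84, against 0.703 in WT 4, the largest. Hpgd had 7 reads in the 3 KO libraries and 56 in the 4 WT libraries, and its groups did not overlap. Foxp3, Il2ra, Ctla4, Ikzf2, Tnfrsf18 and Tnfrsf4 were read in every library, with summed levels of 31467 to 34256 in KO and 29128 to 36501 in WT. Foxp3 itself was a small part of this sum. It was at 123, 107 and 142 in KO 1 to 3, against 107, 56.1, 161 and 103 in WT 1 to 4. Ikzf2 and Tnfrsf4 led this Treg list, and Lck and Cd3g led the T cell list (30602 to 36508 in KO, 27626 to 45202 in WT). Cells of other kinds were not fully absent. The B cell list, with Cd79b and Ms4a1 highest, summed to 327 to 433 in KO and 320.1 to 751 in WT. For the CD8 list of Cd8b1 and Cd8a the sums were 42.3 to 128 in KO and 79.2 to 136 in WT. The stromal list, led by Pecam1 and Col1a1, summed to 309 to 421 in KO and 241 to 463 in WT. The myeloid list, led by Cst3 and Lyz2, summed to 1789 to 3642 in KO and 1233 to 3406 in WT. Of the lists of other cell types, the erythroid one, led by Hba-a2 and Hbb-b1, was apart between the groups, at 77.4 to 239 in KO and 642 to 2809 in WT. The part of these cells in the results below was not tested.

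Promoter sequence is shown for 4 of the genes whose values the results turn on, as the 250 bases before the annotated start (RefSeq, GRCm38.p6, the assembly of mm10). Ifng had 1 WT library far above the other libraries, Il12rb2 was the least abundant member, and Stat4 and Il18rap were the pair with the smallest unadjusted p for Pearson's r below, where no pair passed adjustment. The windows are chr10:118440796-118441045 on the plus strand for Ifng, chr6:67376189-67376438 on the minus strand for Il12rb2, chr1:51986898-51987147 on the plus strand for Stat4 and chr1:40515112-40515361 on the plus strand for Il18rap, each written 5′ to 3′ along the gene. Capitals mark matches to the STAT site TTCNNNGAA, which reads the same on either strand.
Ifng: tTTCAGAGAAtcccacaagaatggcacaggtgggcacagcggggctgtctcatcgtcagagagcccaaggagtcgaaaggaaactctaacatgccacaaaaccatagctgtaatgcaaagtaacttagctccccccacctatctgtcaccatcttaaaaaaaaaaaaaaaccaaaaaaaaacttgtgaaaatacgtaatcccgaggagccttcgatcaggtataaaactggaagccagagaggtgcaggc
Il12rb2: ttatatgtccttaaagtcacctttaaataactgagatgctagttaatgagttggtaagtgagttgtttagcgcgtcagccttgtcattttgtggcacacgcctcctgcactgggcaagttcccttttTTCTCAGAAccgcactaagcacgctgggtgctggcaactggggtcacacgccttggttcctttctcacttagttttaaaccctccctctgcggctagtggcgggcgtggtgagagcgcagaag
Stat4: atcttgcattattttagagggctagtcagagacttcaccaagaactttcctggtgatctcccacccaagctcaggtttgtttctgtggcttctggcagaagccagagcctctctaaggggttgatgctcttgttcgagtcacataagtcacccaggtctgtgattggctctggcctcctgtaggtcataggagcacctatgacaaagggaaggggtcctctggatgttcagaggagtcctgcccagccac
Il18rap: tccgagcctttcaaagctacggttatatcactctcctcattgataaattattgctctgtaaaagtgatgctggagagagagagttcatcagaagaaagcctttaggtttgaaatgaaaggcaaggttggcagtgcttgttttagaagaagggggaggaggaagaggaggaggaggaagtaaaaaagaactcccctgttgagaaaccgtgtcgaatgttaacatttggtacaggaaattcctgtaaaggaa
The Ifng match, TTCAGAGAA, spans the bases 249 to 241 before the start, and the Il12rb2 match, TTCTCAGAA, the bases 123 to 115 before it. RefSeq windows were found for 8 of the 9 genes, 12 windows in all since some have several starts. Of these 12 windows 3 held the STAT site, 1 each of Ifng, Il12rb2 and Il18r1, beside 7.02% of all 32851 windows of this length. The T-box core GGTGTGA, the letters T-bet and Eomes bind, and its reverse complement were in 0 of the 12 windows and in 3.33% of all windows. For the AP-1 site TGANTCA the counts were 0 of 12 and 6.75%. A match is a string of letters in a window, and none of these data measure binding.

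Levels of the 9 genes spanned a wide range within the same cells. Per kb of merged exons, Stat4 was the most abundant, with a normalized count of 499.7 ± 74.1 per kb in KO (SD, n = 3) and 448 ± 50.4 per kb in WT (SD, n = 4). The IL-18 receptor chains followed, with Il18r1 at 181 ± 66.1 per kb in KO and 189 ± 34.0 per kb in WT, and Il18rap at 153 ± 39.3 per kb in KO and 138 ± 29.3 per kb in WT. Il12rb1 lay at 72.0 ± 14.7 per kb in KO and 75.9 ± 16.2 per kb in WT. Hopx came next at 49.6 ± 12.7 per kb in KO and 70.2 ± 16.6 per kb in WT, then Ifng at 48.1 ± 26.5 per kb in KO and 59.2 ± 73.6 per kb in WT. Tbx21 had 27.2 ± 7.56 per kb in KO and 40.0 ± 23.1 per kb in WT. The lowest were Eomes, at 4.94 ± 4.36 per kb in KO and 9.05 ± 3.95 per kb in WT, and Il12rb2, at 2.16 ± 2.71 per kb in KO and 4.59 ± 2.56 per kb in WT. The order of the means was the same in both genotypes. Stat4 stood clear of Il18r1 in each genotype, as did Il18rap of Il12rb1, and the libraries of all other neighbours in this order overlapped, except Tbx21 and Eomes in KO. Lengths taken from the longest transcript kept the order, apart from Il18r1 and Il18rap, which changed places in KO.

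**Figure D1:**
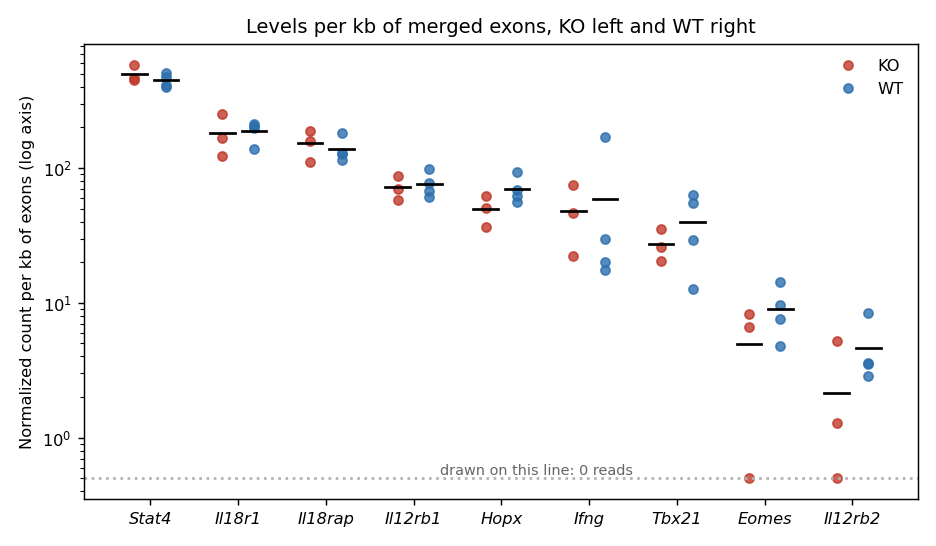
Normalized count per kb of merged exons on a log axis for the 9 genes, KO (red) left of WT (blue), with 1 point per library and a bar at the group mean. Stat4 lies near 500 per kb and Il12rb2 below 10 per kb in every library, and the points on the dotted line are KO 3, which had 0 reads of Eomes and of Il12rb2.

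The main comparison asked whether loss of Hpgd went with another level of Th1-type genes in Treg cells. No member passed the test, and in none did the libraries of the groups separate. With limma on log2(normalized count + 1) and Benjamini-Hochberg adjustment, an adjusted p of 0.05 was reached by 0 of the 9 members and by 0 of all 11787 genes in the test (0%), and every member had a limma adjusted p of 0.9996. An unadjusted p under 0.05 was reached by 0 members in either direction. Over all tested genes this share was 1.79% (211 genes), with 0.781% higher and 1.01% lower in KO. The groups were apart without overlap in 0 members, beside 3.65% of all tested genes. Of the members 6 had lower and 3 higher estimates in KO, where 48.2% of all tested genes had lower ones. The median log2 fold change was -0.11 over the members and 0.013 over all tested genes. With array weights, which count libraries by how closely they follow their group, all 9 members were lower and their median was -0.47. Leaving out each library moved the median to between -0.22 (without KO 1) and 0.071 (without KO 2), and the count of lower estimates was 4 without KO 2 and 8 without KO 3. Fold changes below are on this log2 scale, KO against WT, and the added 1 understates the change of low genes. In bulk RNA, fewer cells expressing a gene and less RNA per cell cannot be told apart.

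**Figure D2:**
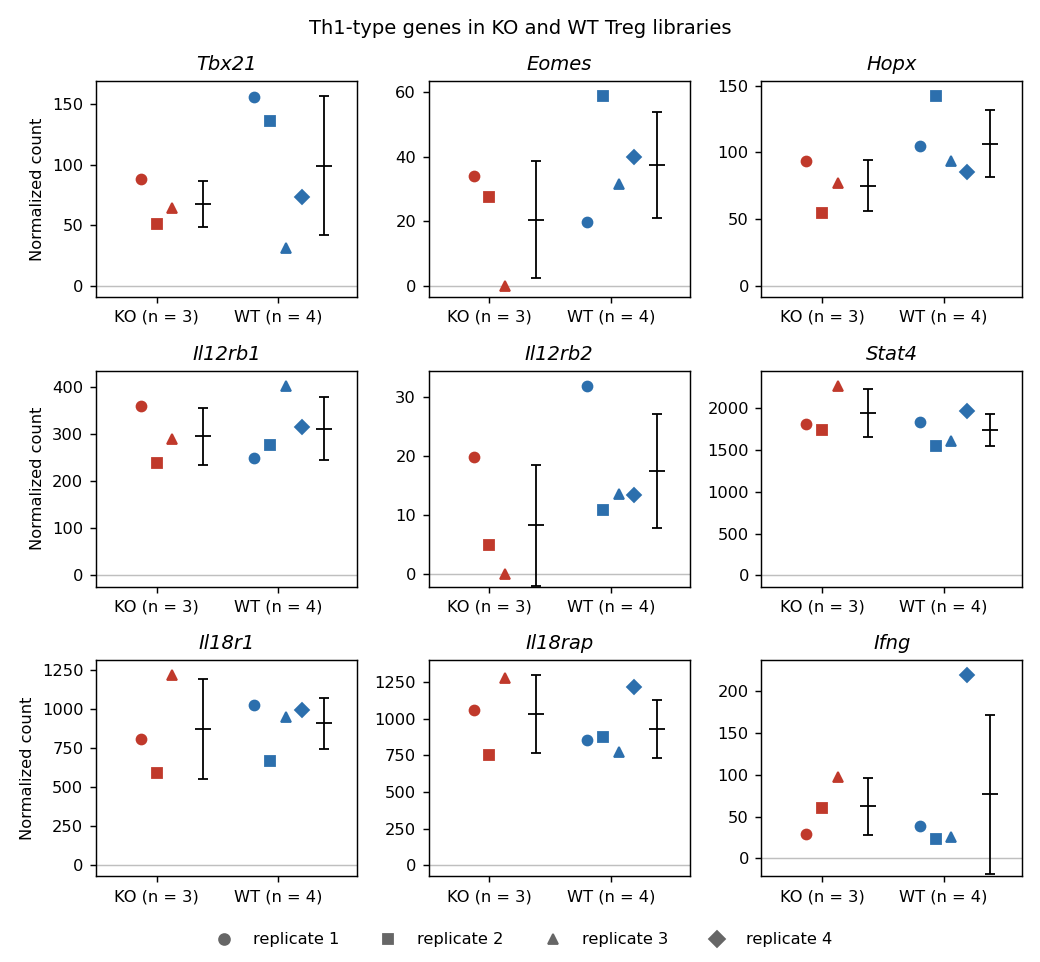
Normalized count of each gene by library, KO (red) left of WT (blue), with the marker shape giving the replicate number and black bars the mean and SD (n = 3 and n = 4). The groups overlap for all 9 genes, and WT 4 stands apart for Ifng (219) and WT 1 for Il12rb2 (31.9).

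Tbx21 encodes T-bet, the T-box factor that directs Th1 differentiation (mm10, chromosome 11, 97098071 to 97115331, minus strand, ENSMUSG00000001444.2). Its normalized count was 88.0, 50.9 and 64.4 in KO 1 to 3, against 156, 137, 31.7 and 73.1 in WT 1 to 4. All 3 KO libraries lay within the WT range, because WT 1 and WT 2 were high and WT 3 was the lowest of all 7. These values rest on 116, 63 and 35 reads in KO and 142, 151, 28 and 104 reads in WT. The mean was 67.8 ± 18.8 (SD, n = 3) in KO and 99.4 ± 57.4 (SD, n = 4) in WT, and the log2 fold change was -0.34 (SE 0.52; 95% interval -1.46 to 0.78; exact two-sided permutation p = 0.629). Leaving out each library in turn gave -0.80 (without WT 3) to -0.047 (without WT 1). The interval includes large changes in both directions, so a difference of that size was not detectable with these libraries.

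Eomes, a T-box factor related to T-bet and better known from NK and CD8 memory cells (chromosome 9, 118478212 to 118486132, plus strand), had 45, 34 and 0 reads in KO 1 to 3, against 18, 65, 28 and 57 reads in WT 1 to 4. As normalized counts these were 34.2, 27.5 and 0 in KO and 19.8, 58.8, 31.7 and 40.1 in WT. KO 1 and KO 2 lay among the WT libraries, and KO 3 alone was below them. A count of 0 in KO 3 allows a normalized count of up to 5.52 (3 reads), which is below every other library. The mean was 20.5 ± 18.1 in KO and 37.6 ± 16.4 in WT, and the log2 fold change was -1.85 (SE 1.06; 95% interval -4.15 to 0.45; exact permutation p = 0.2). Without KO 3 it was -0.18, and with 0.5 or 5 added in place of 1 it was -2.17 or -1.12. Without KO 1 or KO 2 the unadjusted limma p of Eomes was 0.0347 and 0.0463, with log2 fold changes of -2.75 and -2.60. The ratio of summed reads, KO over WT and corrected for depth, was 0.656, and counting error put it between 0.495 and 0.861 (95% exact Poisson bounds), while the spread between libraries was 2.99 times counting error in KO and 2.65 times in WT.

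Hopx encodes a small homeodomain protein that does not bind DNA itself, found in mouse effector memory Th1 cells and needed by peripherally induced Treg cells (chromosome 5, 77086988 to 77115121, minus strand). Its normalized count was 93.3, 54.9 and 77.2 in KO 1 to 3, against 105, 142, 93.9 and 85.0 in WT 1 to 4. KO 2 and KO 3 lay below all WT libraries, and KO 1 lay between WT 4 and WT 3. The mean was 75.2 ± 19.3 in KO and 106 ± 25.1 in WT, and the log2 fold change was -0.50 (SE 0.35; 95% interval -1.26 to 0.26; exact permutation p = 0.114). The estimate was negative without any single library, between -0.67 and -0.29.

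Of the IL-12 receptor chains, Il12rb1, which also serves in the IL-23 receptor (chromosome 8, 70808449 to 70821424, plus strand), was well read. Its normalized count was 359, 239 and 289 in KO 1 to 3, against 249.7, 278, 403 and 316 in WT 1 to 4. The groups were interleaved, with means of 296 ± 60.2 in KO and 311 ± 66.5 in WT (log2 fold change -0.072, SE 0.25; 95% interval -0.62 to 0.47; exact permutation p = 0.714).

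Il12rb2 is the chain that restricts IL-12 signalling to Th1 and NK-type cells (chromosome 6, 67291318 to 67376188, minus strand), and it was near the limit of detection. It had 26, 6 and 0 reads in KO 1 to 3, against 29, 12, 12 and 19 reads in WT 1 to 4. The normalized counts were 19.7, 4.85 and 0 in KO, against 31.9, 10.9, 13.6 and 13.4 in WT. KO 2 and KO 3 lay below all WT libraries, KO 1 lay above 3 of them, and the 0 in KO 3 allows up to 5.52, so KO 2 and KO 3 cannot be ranked. The mean was 8.19 ± 10.3 in KO and 17.4 ± 9.73 in WT, and the log2 fold change was -1.77 (SE 1.06; 95% interval -4.07 to 0.53; exact permutation p = 0.171). Without KO 3 it was -0.62, without KO 1 it was -2.81 with an unadjusted limma p of 0.0341, and with 0.5 or 5 added in place of 1 it was -2.11 or -0.98. The depth-corrected ratio of summed reads, KO over WT, was 0.62, and counting error put it between 0.395 and 0.952 (95% exact Poisson bounds). These bounds are too narrow for a comparison of genotypes, since the spread between libraries was 3.20 times counting error in KO and 2.33 times in WT. Per kb, the ratio of Il12rb2 to Il12rb1 was 0.0271 ± 0.0301 in KO and 0.0657 ± 0.0485 in WT (SD, exact permutation p = 0.343), a ratio within each library that no scaling between libraries touches.

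Stat4, the transcription factor below the IL-12 receptor (chromosome 1, 51987148 to 52107189, plus strand), had normalized counts of 1806, 1734 and 2264 in KO 1 to 3, against 1833, 1545, 1600.3 and 1959.6 in WT 1 to 4. KO 3 was the highest of all libraries, and KO 1 and KO 2 lay within the WT range. The mean was 1935 ± 287 in KO and 1734 ± 195 in WT (log2 fold change 0.15, SE 0.19; 95% interval -0.25 to 0.56; exact permutation p = 0.371). Leaving out each library in turn gave 0.036 (without KO 3) to 0.23 (without KO 2), and with array weights it was -0.013.

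The IL-18 receptor genes lie beside each other on chromosome 1, Il18r1 at 40465552 to 40500854 and Il18rap at 40515362 to 40551705, both on the plus strand with 14507 bases between them. Il18r1, the chain that binds IL-18, had normalized counts of 811, 587 and 1215 in KO 1 to 3, against 1026, 669, 951 and 994 in WT 1 to 4. KO 3 was the highest and KO 2 the lowest of all 7 libraries, so the KO group spanned the WT group. The means were 871 ± 318 in KO and 910.1 ± 164 in WT (log2 fold change -0.11, SE 0.26; 95% interval -0.66 to 0.45; exact permutation p = 0.771). Without both WT 2 and KO 3 the log2 fold change of Il18r1 was -0.52 with an unadjusted limma p of 0.0154, and with array weights it was -0.47 with 0.0242. The limma adjusted p was 0.998 and 0.974 in these settings, and 0.974 was the smallest this gene reached under any alternative.

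Il18rap, the accessory chain needed for signalling, had normalized counts of 1063, 751 and 1279.8 in KO 1 to 3, against 857, 875, 772 and 1220.2 in WT 1 to 4. KO 3 was again the highest and KO 2 the lowest of all libraries. The means were 1031 ± 266 in KO and 931 ± 198 in WT (log2 fold change 0.14, SE 0.23; 95% interval -0.37 to 0.64; exact permutation p = 0.6). Within a library the ratio of Il18rap to Il18r1 per kb was 0.935, 0.913 and 0.751 in KO 1 to 3, against 0.596, 0.934, 0.579 and 0.876 in WT 1 to 4. WT 1 and WT 3 held the lowest ratios, and the difference was within the spread between libraries (exact permutation p = 0.314).

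Ifng encodes interferon-gamma, the signature cytokine of Th1 cells (chromosome 10, 118441046 to 118445892, plus strand). Its normalized count was 28.8, 60.6 and 97.5 in KO 1 to 3, against 38.5, 22.6, 26.0 and 219 in WT 1 to 4, from 38, 75 and 53 reads in KO and 35, 25, 23 and 312 reads in WT. WT 4 stood far above every other library, and KO 2 and KO 3 lay above the remaining 3 WT libraries. The mean was 62.3 ± 34.3 in KO and 76.6 ± 95.4 in WT. The log2 fold change was 0.22 (SE 0.72; 95% interval -1.34 to 1.78; exact permutation p = 0.829), opposite in sign to the difference of the means. Without WT 4 the log2 fold change was 0.95 (SE 0.59). It was -0.18 without KO 3, -0.13 without WT 2 and -0.062 without WT 3, so the sign of Ifng changed with single libraries. The spread between WT libraries was 11.3 times counting error. Il22, a cytokine gene 230998 bases from Ifng on chromosome 10, averaged 3.81 ± 5.91 in KO and 2.56 ± 3.85 in WT and was at 0 reads in 3 of 7 libraries.

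NK cells also make interferon-gamma and Eomes, and other group 1 innate lymphoid cells also make interferon-gamma. Markers of these cells were present at low levels. The 10 markers summed to 969 to 2022 in KO and 461 to 2268 in WT, led by Gzma, which Treg cells also express, and Cd160. Without Gzma the sums were 373, 355 and 291 in KO 1 to 3, against 510.4, 732, 260.1 and 537 in WT 1 to 4. They rested mainly on Cd160, Tyrobp and Fcer1g, with means over all libraries of 228, 79.2 and 75.6. Klrb1c (15.4) and Ncr1 (12.3) added little, so the sums do not follow these 2 markers. Of the 10 markers 5 had 0 reads in at least 1 library. Ncr1, a marker of these cells, was at 15.2, 8.89 and 0 in KO 1 to 3, against 23.1, 18.1, 10.2 and 10.5 in WT 1 to 4. The markers did not share an order of libraries. In WT 4, which had the most Ifng, Klrb1c (35.8) and Gzma (1731) were at their highest. Tyrobp (115) and Fcer1g (103) were there below WT 2 alone, while Ncr1 (10.5) lay in the middle and Klrd1 (2.11) and Klra4 (1.41) were low. In KO 3, which had 0 reads of Eomes, Ncr1, Klra4, Klra7 and Klra8 were at 0. Klrd1 was there at 18.4, within the worth of 1 read of WT 2 and WT 3 (18.1 each). WT 1, with Eomes at 19.8, was also at 0 for Klra4, Klra7, Klra8 and Klrd1. Their part in the Ifng and Eomes values was not tested.

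**Figure D3:**
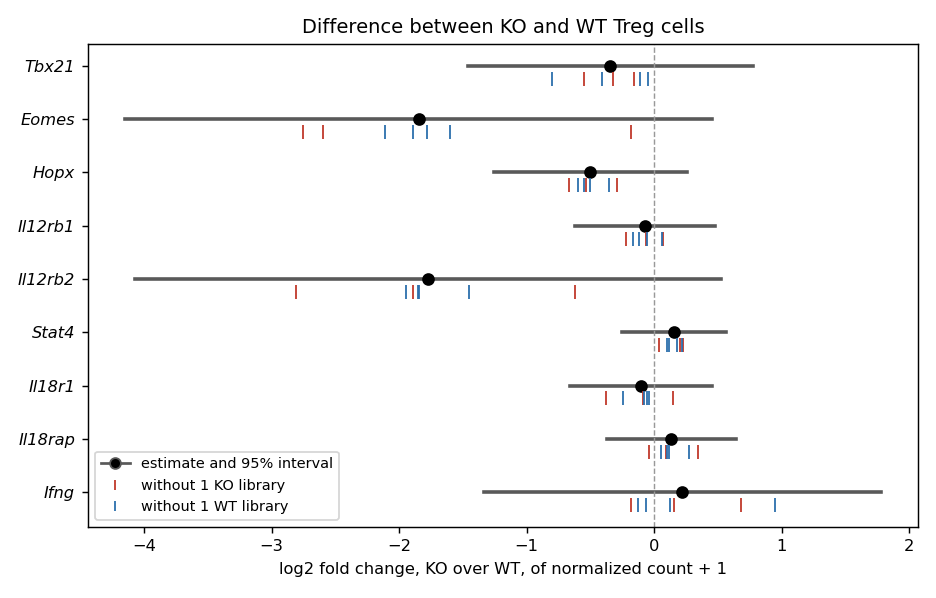
Log2 fold change of each gene, KO over WT, as a black point with its 95% interval (grey), and below it the estimates without 1 KO library (red ticks) or without 1 WT library (blue ticks). All 9 intervals include 0, and the ticks cross 0 for Il12rb1, Il18r1, Il18rap and Ifng, while Eomes and Il12rb2 have the widest intervals and move nearest to 0 without KO 3.

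The members also differed in how far libraries of the same genotype lay apart. On the log2 scale the SD within genotypes was 0.18 for Stat4, lower than in all but 6.88% of tested genes. It was 0.29 for Il12rb1, 0.33 for Il18rap, 0.35 for Hopx and 0.40 for Il18r1, beside a median of 0.41 over all tested genes. Tbx21 (0.84), Ifng (1.28), Il12rb2 (1.48) and Eomes (1.89) varied more, above 83.1%, 93.1%, 94.9% and 98.0% of tested genes. Eomes and Il12rb2 had the fewest reads of the 9 members. The spread was above what counting gives for every member in both genotypes. In WT it was 11.3 times counting for Ifng, 7.08 for Il18rap, 5.68 each for Tbx21 and Il18r1 and 5.06 for Stat4. In KO it was 9.72 times for Il18r1, 7.93 for Il18rap, 5.49 for Stat4, 4.23 for Ifng and 2.55 for Tbx21. This multiple therefore orders the genes otherwise than the SD does.

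No library was high or low for the whole programme. KO 3 held the highest value of Stat4, Il18r1 and Il18rap and the lowest of Eomes. It also had 0 reads of Il12rb2, where it cannot be ranked against KO 2. KO 2 held the lowest value of Hopx, Il12rb1, Il18r1 and Il18rap, 4 of the 9 members. WT 1 was highest for Tbx21 and Il12rb2, WT 2 for Eomes and Hopx, WT 3 for Il12rb1 and WT 4 for Ifng, while WT 3 was lowest for Tbx21 and WT 2 for Stat4 and Ifng. Averaged over members in SDs from the gene mean, libraries lay between -0.73 (KO 2) and 0.54 (WT 4).

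**Figure D4:**
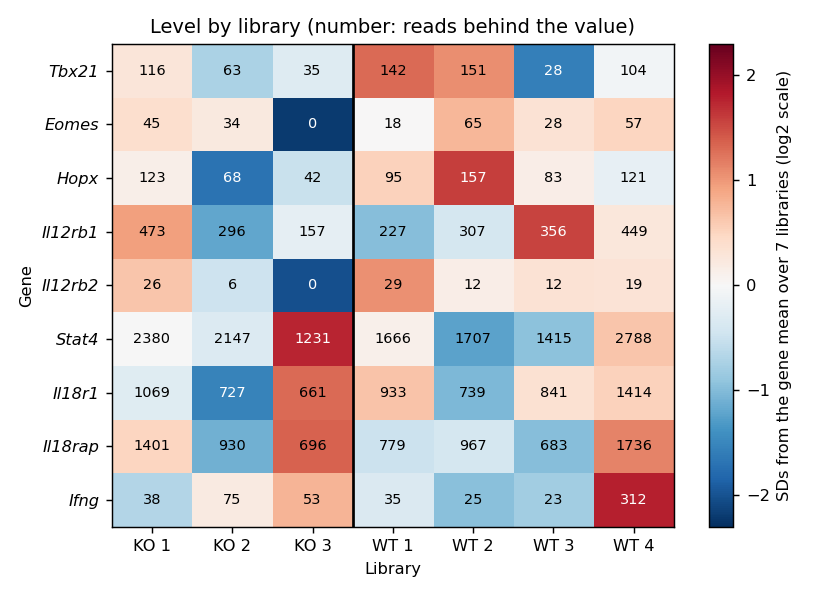
Level of each gene by library, KO left of the line and WT right, coloured by SDs from the gene mean on the log2 scale, with the reads behind each value printed in the cell. The dark blue cells of KO 3 are its 0 reads of Eomes and Il12rb2, and the darkest red of Ifng is WT 4 with 312 reads.

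Joint variation was measured on all 36 pairs of members over the 7 libraries, with exact permutation of pairings and Benjamini-Hochberg adjustment over the pairs. No pair passed, with a smallest adjusted p of 0.539 for Pearson's r and 0.795 for Spearman's rho, and 19 of 36 pairs had a positive r (median 0.12). At an unadjusted exact p under 0.05 there were 2 pairs by r and 2 by rho. Stat4 and Il18rap had r = 0.81 (exact permutation p = 0.025, adjusted p = 0.539) and rho = 0.68 (exact permutation p = 0.11, adjusted p = 0.907). Without KO 3 and WT 2, the libraries farthest from the median of Stat4, r was 0.81, and without KO 3 and WT 4, farthest on Il18rap, it was 0.36. Stat4 and Ifng had r = 0.73 (exact permutation p = 0.0665, adjusted p = 0.598) and rho = 0.86 (exact permutation p = 0.0238, adjusted p = 0.795), and r was 0.56 without KO 3 and WT 4 and 0.74 without KO 3 and WT 2. Stat4 and Il18r1 had r = 0.69 (exact permutation p = 0.0855, adjusted p = 0.598) and rho = 0.79 (exact permutation p = 0.048, adjusted p = 0.795), with r = 0.25 without KO 3 and WT 2, farthest on Stat4, and r = 0.70 without KO 2 and WT 2, farthest on Il18r1. The chains Il18r1 and Il18rap had r = 0.61 (exact permutation p = 0.149, adjusted p = 0.598) and rho = 0.61 (exact permutation p = 0.167, adjusted p = 0.907), with r = 0.34 without KO 2 and WT 2, farthest on Il18r1, and r = 0.17 without KO 3 and WT 4, farthest on Il18rap.

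Some pairs changed sign without KO 3 and WT 2. Eomes and Il12rb2 had the highest r of all pairs, 0.83 (exact permutation p = 0.106, adjusted p = 0.598; rho = 0.14, exact permutation p = 0.783, adjusted p = 0.945), and r was -0.32 without KO 3 and WT 2. Stat4 and Eomes had r = -0.81 (exact permutation p = 0.03, adjusted p = 0.539; rho = -0.54, exact permutation p = 0.236, adjusted p = 0.907), and r was 0.18 without the same libraries. Tbx21 and Ifng, a factor and its textbook target, had a weak negative r (r = -0.15, exact permutation p = 0.749, adjusted p = 0.854; rho = -0.18, exact permutation p = 0.713, adjusted p = 0.945). Without WT 1 and WT 3, farthest on Tbx21, their r was -0.59, and without KO 3 and WT 4, farthest on Ifng, it was -0.16.

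**Figure D5:**
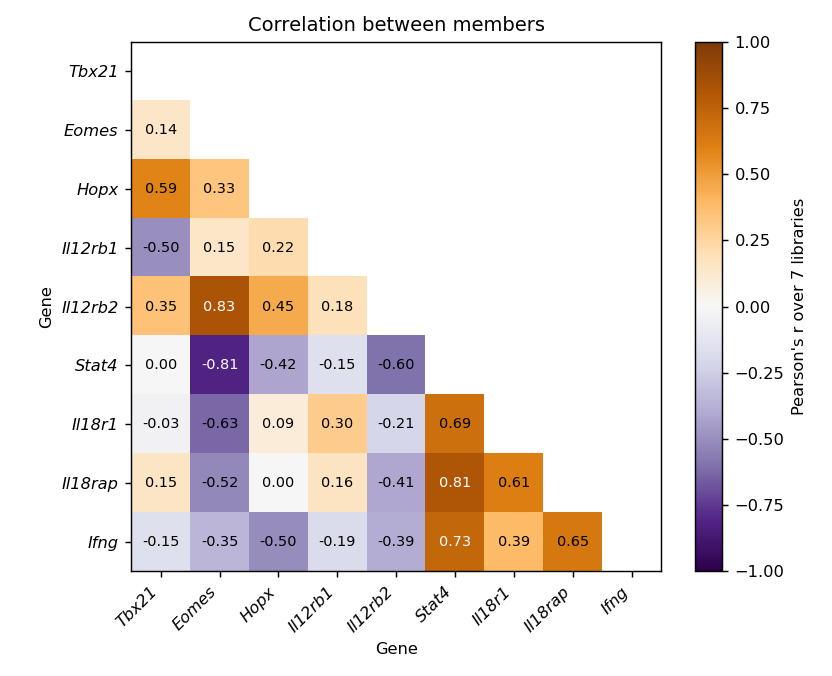
Pearson's r of log2(normalized count + 1) over the 7 libraries for the 36 pairs of members, orange for positive and purple for negative values. The orange block of Stat4, Il18r1, Il18rap and Ifng holds values from 0.39 to 0.81. Of these, Ifng with Il18rap (0.65) and with Il18r1 (0.39) turn to -0.43 and -0.34 without KO 3 and WT 4, the libraries farthest on Ifng. The strongest values of Eomes, 0.83 with Il12rb2 and -0.81 with Stat4, change sign without KO 3 and WT 2.

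Among 11099 tested genes outside predicted genes and receptor segments, those most like Tbx21 over the 7 libraries were Ncf4, Rabepk and Suds3 (r of 0.98 each). For Ifng they were Rbl1, Hmces and Xlr4b (0.97, 0.97 and 0.96), for Eomes Kctd13, Hdac7 and Lrp12 (0.99 each) and for Hopx Zfp646, Triap1 and Adck2 (0.98, 0.98 and 0.97). These genes were selected for their r among many, so the values describe the selection, and no member was among them. In all, 78 genes had r above 0.9 with Tbx21, 19 with Ifng, 241 with Eomes and 62 with Hopx.

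The wider pathway was read through 54 further tested genes of the IL-12, IL-18 and interferon-gamma pathways, Th1 regulators and Th1 effectors. In KO 32 of them were estimated higher and 22 lower (40.7% lower, beside 48.2% of all tested genes). Their median was 0.060 on the log2 scale, and 0 passed the limma test after adjustment. An unadjusted p under 0.05 was reached by 2 that were higher and 1 that was lower, beside 0.781% and 1.01% of all tested genes. These 3 genes, Il23r, Il1r1 and Gzmk, were also those of the 54 whose groups did not overlap, beside 3.65% of all tested genes. Il23r (mean 26.0 in KO, 1.02 in WT) passed the filter through KO alone. Gzmk (mean 3.88 in KO, 29.2 in WT) passed it through WT alone. Their place in these counts is therefore no support for a difference.

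Among the Th1 transcriptional partners, 8 of 12 tested genes had higher and 4 lower estimates, and 0 reached an unadjusted p of 0.05. Prdm1, the gene of the repressor Blimp-1, had the smallest p of them (298 ± 52.1 in KO and 241 ± 99.7 in WT, log2 fold change 0.40, SE 0.35). In the IL-12 family list 4 of 7 genes were higher and 3 lower. Its Il23r, which joins Il12rb1 to form the IL-23 receptor, was at 5.31, 19.4 and 53.3 in KO 1 to 3, against 0, 0, 3.39 and 0.703 in WT 1 to 4 (log2 fold change 3.53, SE 1.29; limma adjusted p = 0.9996). Its partner chain Il12rb1 was interleaved between the genotypes, while Il23r was at or near 0 in all WT libraries. In the interferon-gamma receptor list 5 of 8 genes were higher and 3 lower, and Socs1, a feedback inhibitor, had the smallest p (1128 ± 282 in KO and 1412 ± 452 in WT, log2 fold change -0.30, SE 0.25).

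In the IL-18 and IL-1 family list 7 of 12 genes were higher and 5 lower in KO. Il1r1, the signalling receptor for IL-1, was at 65.3, 82.4 and 199 in KO 1 to 3, against 57.2, 32.6, 12.4 and 54.8 in WT 1 to 4 (log2 fold change 1.57, SE 0.58; limma adjusted p = 0.9996). It lies in the same cluster on chromosome 1 as the IL-18 receptor genes, in the order Il1r2, Il1r1, Il1rl2, Il1rl1, Il18r1 and Il18rap, all on the plus strand. The decoy receptor gene Il1r2 averaged 493 ± 97.6 in KO and 338 ± 96.0 in WT (log2 fold change 0.57, SE 0.26), and the IL-36 receptor gene Il1rl2 averaged 18.1 ± 3.23 in KO and 17.6 ± 17.9 in WT. Il1rl1, the IL-33 receptor gene ST2, ends 136 bases before Il18r1 and averaged 1340.0 ± 496 in KO and 1112 ± 459 in WT (log2 fold change 0.28, SE 0.32). Of the 6 cluster genes 5 had higher estimates in KO, and Il18r1 the lower one. Counts per gene cannot set apart reads from any transcript that runs from Il1rl1 into Il18r1, and whether there was one was not tested.

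Th1 effector and homing genes split into 9 higher and 8 lower estimates among 17 tested. Gzmk, a granzyme gene of effector memory T cells, was at 7.59, 4.04 and 0 in KO 1 to 3, against 7.70, 11.8, 73.5 and 23.9 in WT 1 to 4 (log2 fold change -2.60, SE 1.06; limma adjusted p = 0.9996), and its nearest libraries, KO 1 and WT 1, differed by less than the worth of 1 read. Cxcr3, taken after its values were seen because it marks T-bet+ Treg cells, had normalized counts of 2912, 2239 and 2037 in KO 1 to 3, against 2529, 4255, 1650.1 and 2932 in WT 1 to 4 (log2 fold change -0.18, SE 0.28). WT 2 and WT 3 held its highest and lowest values, so the KO group lay within the WT group.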

How the data were processed

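RNA-seq was made from 3 KO and 4 WT samples of YFP+ Treg cells with SmartSeq2 from 10 ng of RNA, per the labels. SmartSeq2 keeps neither strand nor molecular identifiers, so bounds from reads hold for counting error alone. Tools listed in the submitters' processing notes, with no role or order, are DESeq2, R 3.3.1, Partek 6.6, kallisto 0.44 and CASAVA 1.8, and the build is mm10. The authors deposited a normalized expression signal per gene with a minimum of 1. After 1 was subtracted, each library's values (100%, to within 0.01 of a read) were multiples of a single step. Normalized counts are these differences, and reads are normalized counts divided by the step, or rounded estimates if the authors started from estimated counts.

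The filter was a mean normalized count of 10 or more (11787 of 15815 genes). The test was limma 3.58.1 (R 4.3.3, log2 of normalized count + 1, trended eBayes prior, no covariate, Benjamini-Hochberg at 0.05), and its script was tested on simulated data. Exact permutation enumerated all 35 assignments of the 7 libraries to groups of 3 and 4, so 0.0286 is the smallest p possible. Positions and exon lengths are from GENCODE M21 (GRCm38). Members and lists were chosen with earlier results of these data known. Named genes are the 9 members, the list genes with an unadjusted p under 0.05 or else the smallest p and highest level, the 2 most abundant markers per cell type, genomic neighbours, and the 3 genes most like Tbx21, Ifng, Eomes and Hopx. A gene that this rule also names is not reported here. Alternatives were other pseudocounts, scaling, filters, priors, weights, voom, the replicate block and leaving out libraries.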

Additional observations from a re-analysis of the deposited data

Results flagged for a closer look

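Among the 4 WT libraries, WT 4 stood apart for Ifng at a normalized count of 219, with a gap to the next library of 0.919 of the group's range, above the critical value of 0.829 for 4 samples in Dixon's test. WT 1 stood apart for Il12rb2 at 31.9, with a gap of 0.871 of the range. All 9 members were examined in the WT group, and chance gives about 1 such case in 20 groups if values are normally distributed. These gaps are of normalized counts, not of the log2 scale used elsewhere. The log2 levels in WT 1 to 4 were 5.30, 4.56, 4.76 and 7.78 for Ifng and 5.04, 3.57, 3.87 and 3.84 for Il12rb2. On that scale neither gap reached the critical value. The KO group of 3 was too small to be examined this way.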

How the results depend on the processing

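Of 160 recomputed member fold changes, 145 kept their direction and 15 reversed, and none passed after adjustment (smallest adjusted p 0.92). Tbx21, Hopx and Il12rb2 kept their sign under every alternative run. Leaving out each library gave a log2 fold change of -0.18 to 0.95 for Ifng, -0.22 to 0.071 for Il12rb1, -0.38 to 0.15 for Il18r1 and -0.037 to 0.35 for Il18rap, 4 to 8 members lower, a members' median of -0.22 to 0.071, 0 genes passing in each case and 112 to 363 at an unadjusted p under 0.05. With array weights, which give WT 2 and KO 3 the least weight, all 9 members were lower, the members' median was -0.47, and Ifng (-0.52), Stat4 (-0.013) and Il18rap (-0.14) reversed. Without both WT 2 and KO 3, Ifng (-0.53), Stat4 (-0.017), Il18rap (-0.059) and Eomes (0.061) reversed. With voom Ifng was -0.13. All tested genes past adjustment numbered 0, but 4 with array weights, 4 without both WT 2 and KO 3 and 3 with the replicate block, none of them a member. At an unadjusted p under 0.05 there were 211, but 579, 400 and 393 in these settings and 346 without a filter. Correlations of deviations between same-numbered libraries were 0.0081, -0.036 and 0.094 for numbers 1 to 3. Between other libraries of the 2 groups they ran from -0.20 (KO 1 and WT 3) to 0.20 (KO 1 and WT 2). So few libraries cannot show whether the numbers pair them. The replicate block, in which WT 4 has no partner and adds nothing to the contrast, changed no member's call. The causes were not tested. The planned TMM scaling and the edgeR and DESeq2 tests were not run, because the deposited values hold an offset of 1 and the reads, used here only for voom, scaling by total reads and counting error, were recovered from them. Il12rb2 had the fewest reads of the members (32 in KO and 72 in WT), and in KO 3, the shallowest library, a count of 0 allows a level of up to 5.52.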
